A study of Mus musculus with 24 samples.

Results

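Obeticholic acid (OCA, INT-747), a semi-synthetic bile acid agonist, was compared with its vehicle in liver that lacks the receptor the drug was made for. The comparison set the 6 arrays of FXR-/- mice given OCA against the 6 arrays of FXR-/- mice given vehicle, as named in the sample titles, out of 24 arrays in all. The other 12 arrays were from wild-type mice, 6 given OCA and 6 given vehicle, and appear here only beside the knockout values. All mice were male, on a C57BL/6 background and a chow diet, and 9 to 12 weeks old when dosing began. The OCA groups received 10 mg/kg/day and the vehicle groups 1% methyl cellulose, in which the drug was also dissolved, by oral gavage every day for 7 days. The labels describe the FXR-/- line only by a literature reference and name no promoter or Cre driver. Each array held the liver RNA of 1 mouse, and 18820 genes were measured by the probe set with the highest mean level for each gene symbol.

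FXR, encoded by Nr1h4, is a nuclear receptor that is switched on by bile acids. In the liver it induces the repressor gene Nr0b2 and the bile acid export genes Abcb11, Slc51a and Slc51b, and through these and through gut hormone signals it lowers the synthesis enzymes Cyp7a1 and Cyp8b1. Bile acids also act on other receptors, among them the membrane receptor Gpbar1 and the nuclear receptors PXR and VDR, so a bile acid drug can in principle act in a liver without FXR.

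The transcript of the deleted gene did not separate the genotypes on these arrays. Nr1h4 lay between 9.88 and 10.13 in the knockout vehicle arrays and between 9.80 and 10.05 in the knockout OCA arrays, on the log2 scale used for all levels here. The wild-type vehicle arrays lay between 9.96 and 10.30, and the genotype difference under vehicle was −0.17 (limma, Benjamini-Hochberg adjusted p = 0.0935). The sources used here do not give which part of the gene was removed, so a probe set outside that part would check nothing. Of the receptor's targets, Nr0b2 and Abcb11 separated the genotypes, while Slc51a overlapped, at 2.67 to 3.25 in knockout and 2.83 to 3.46 in wild-type arrays. Nr0b2 was highest at 4.82 over the 12 knockout arrays and lowest at 5.87 over the wild-type arrays, and Abcb11 at 10.07 against 10.87. Knockout and wild-type vehicle liver differed in 5174 genes, which is 27.5% of those tested.

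Between OCA and vehicle 3 genes were called in knockout liver (limma over 24 arrays, Benjamini-Hochberg adjusted p under 0.05). Mogat2 and Far2 were lower under OCA and Gngt1 was higher, and the calls were lost in some of the alternative fits given below. That is 0.0159% of the 18820 genes. Mogat2 encodes an acyltransferase that makes diacylglycerol from monoacylglycerol, and Far2 a reductase that makes fatty alcohols from fatty acyl-CoA. Gngt1 encodes a G protein gamma subunit known from rod photoreceptors. The size of the changes ranged from 1.33-fold for Gngt1 to 1.87-fold for Mogat2.

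Mogat2 stood at 6.37, 6.68, 6.59, 6.75, 6.28 and 6.55 in the vehicle arrays, replicates 1 to 6. The OCA arrays gave 5.91, 5.14, 6.01, 5.54, 5.74 and 5.50. Every OCA array was below every vehicle array, and the lowest was OCA replicate 2. Mogat2 fell by 0.90 ± 0.14 (SE) on the log2 scale, with a 95% interval from −1.18 to −0.62 and an adjusted p of 0.0119 by limma. The fall remained within the range that separates the genotypes: wild-type vehicle liver was at 4.35 ± 0.31 (SD, n = 6) and knockout vehicle liver at 6.54 ± 0.18 (SD, n = 6), so knockout liver under OCA, at 5.64 ± 0.32 (SD, n = 6), was still above every wild-type array. The genotype difference and the OCA difference use the same knockout vehicle arrays. In wild-type liver OCA was at −0.24 for Mogat2, and the difference between the genotypes' OCA effects was −0.66 (95% interval −1.06 to −0.27), which did not pass over all genes (limma, adjusted p = 0.446).

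Far2 was measured near the lower end of the scale. Its lowest, median and highest values were 2.87, 3.11 and 3.32 in knockout vehicle liver and 2.41, 2.64 and 2.74 under OCA. The groups did not overlap. The wild-type means were 2.77 under vehicle and 2.85 under OCA. The knockout vehicle mean, at 3.08, lay above both, and the knockout OCA mean, at 2.61, lay below both. Under vehicle the genotype difference was 0.32 (limma, adjusted p = 0.0019), and it uses the same knockout vehicle arrays as the OCA difference. Far2 fell by 0.47 ± 0.07 (SE) on the log2 scale (limma, adjusted p = 0.0132). The difference from the wild-type OCA effect was −0.56, with an interval from −0.77 to −0.34 and an adjusted p of 0.095 by limma.

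Gngt1 was also dim. In knockout vehicle liver it ran from 3.41 through a median of 3.57 to 3.67, and under OCA from 3.77 through 4.01 to 4.13. The knockout OCA arrays were above all the other 18 arrays, of which the highest read 3.73. Gngt1 rose by 0.41 ± 0.07 (SE) on the log2 scale (limma, adjusted p = 0.0161), and the difference from the wild-type effect was 0.41, with an adjusted p of 0.255 by limma. The median gene stood at 5.28, no detection calls were used, and a dim probe set may hold much background. Each of the 3 genes is read from 1 probe set.

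**Figure D1:**
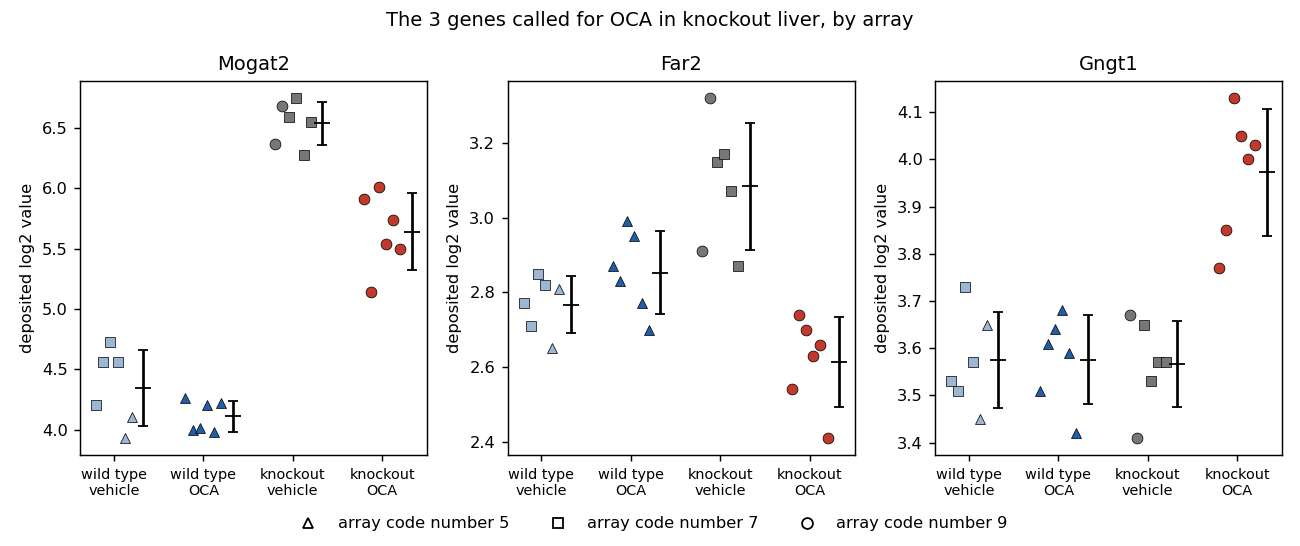
Deposited log2 value of Mogat2, Far2 and Gngt1 on each of the 24 arrays, by group; point shapes give the number in the array's code, and the bars show the group mean ± SD over 6 arrays. The knockout OCA points lie below every knockout vehicle point for Mogat2 and Far2 and above all other arrays for Gngt1, and for Mogat2 both knockout groups lie above the wild-type groups.

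The calls depended on single mice. None of the 3 genes was called without knockout vehicle replicate 2 (adjusted p 0.0549 for Mogat2, 0.0549 for Far2 and 0.083 for Gngt1 by limma), nor without knockout OCA replicate 6 (0.0599, 0.0648 and 0.0726 by limma). Gngt1 also lost its call without OCA replicate 3, 4 or 5 or vehicle replicate 5 or 6, at adjusted p between 0.0515 and 0.0714 by limma. The log2 change stayed between −0.97 and −0.80 for Mogat2, between −0.51 and −0.42 for Far2, and between 0.37 and 0.45 for Gngt1 over the 12 fits that each left out 1 knockout array. A fit on the knockout arrays alone, which estimates the spread from 12 arrays, gave the same changes with adjusted p of 0.0823 for Mogat2, 0.142 for Far2 and 0.127 for Gngt1 by limma. Gngt1 was also not called after centring or quantile normalization (limma, adjusted p = 0.0525 and 0.0528).

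The other genes of the 3 families were not called. Mogat1, the second monoacylglycerol acyltransferase gene of this list, had a median of 6.68 in both knockout groups, and its mean difference of −0.18 came with a single OCA array, replicate 2, at 5.31. Dgat1 and Dgat2, whose enzymes add the last acyl chain of triacylglycerol, stood at −0.01 and −0.20 (limma, adjusted p = 0.999 and 0.942). Far1, the second fatty acyl-CoA reductase gene, stood at 0.17 (limma, adjusted p = 0.986). Of the 24 genes measured for monoacylglycerol and triacylglycerol synthesis and breakdown, Mogat2 was the only one called, and 4 were lower and 0 higher at unadjusted p under 0.05, a level passed by 968 genes in all (5.14%). Beside Mogat2 these were the lipase genes Lipe at −0.27 and Abhd6 at −0.23, and Dgat2. The median of the list was −0.01, against 0.00 for all genes. Among the 12 fatty alcohol and ether lipid genes only Far2 passed either level, and the list median was 0.03. Among the 15 genes of G protein beta and gamma subunits Gngt1 was the only call, with Gng8 at −0.35 and Gng4 at −0.19, both at unadjusted p under 0.05.

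The genes that FXR controls gave no call in knockout liver. Of 21 measured FXR-induced genes 11 were higher and 10 lower under OCA, 0 passed unadjusted p under 0.05 by limma, and their median was 0.04. The 17 bile acid synthesis genes had a median of −0.01 and likewise 0 at that level. Among 18 bile acid transport genes 2 were higher and 1 lower at unadjusted p under 0.05, against 2.68% and 2.46% of all genes. These were the uptake carrier gene Slco1a1 at 0.57, the flippase gene Atp8b1 at 0.18 and the uptake carrier gene Slco2b1 at −0.18. Slco1a1 lay below the median gene in knockout vehicle liver, at 4.31 ± 0.69 (SD, n = 6), beside 10.71 in wild-type vehicle liver. For OCA in wild-type liver the FXR-induced list had a median of 0.05, beside 0.04 in knockout liver, with 2 genes called higher. There the synthesis list had a median of −0.05 with 1 gene called lower, and the transport list 0.07 with 1 called higher. Over all genes 0.0691% were called in wild-type liver.

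Nr0b2, the repressor gene that FXR switches on, had a lowest, median and highest value of 3.40, 4.03 and 4.60 in knockout vehicle liver and 3.57, 4.01 and 4.82 in knockout OCA liver. The groups overlapped almost fully, and the change was 0.20 with an interval from −0.32 to 0.72. In wild-type liver it was 1.41, and the difference between genotypes was −1.21, with an interval from −1.95 to −0.47 (limma, adjusted p = 0.495). Slc51b, which encodes the beta subunit of an organic solute transporter that carries bile acids out toward the blood, showed the same order. Its knockout change was 0.13 (interval −0.15 to 0.40) beside 1.02 in wild-type liver, and the difference was −0.89, from −1.28 to −0.50 (limma, adjusted p = 0.168). Slc51a, the partner subunit, stood at −0.02 in knockout liver and was near the lower end of the scale in all groups. In wild-type liver Slc51a was at −0.22, opposite in direction to Slc51b. Its interval there ran from −0.40 to −0.05, and it was not called (limma, adjusted p = 0.385).

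Cyp8b1, the enzyme gene of cholic acid synthesis, ran from 11.62 through 11.66 to 11.77 in knockout vehicle liver and from 11.43 through 11.49 to 11.73 under OCA. The change was −0.13 in knockout liver (interval −0.42 to 0.16) and −1.28 in wild-type liver, and the difference of 1.15, with an interval from 0.75 to 1.56, had an adjusted p of 0.0841 by limma, the smallest of all genes in that test. Cyp7a1, the rate-limiting enzyme gene of bile acid synthesis, stood at −0.19 in knockout liver, but its interval from −0.91 to 0.52 was wide. The wild-type arrays of Cyp7a1 ran from 8.01 to 11.08 and widen that interval through the shared estimate of spread; the 12 knockout arrays lay between 10.98 and 11.61. Abcb11, the canalicular bile salt pump gene, gave nearly the same change in both genotypes, 0.20 in knockout and 0.18 in wild-type liver, and was called in neither; the difference was 0.02 with an interval from −0.32 to 0.37.

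**Figure D2:**
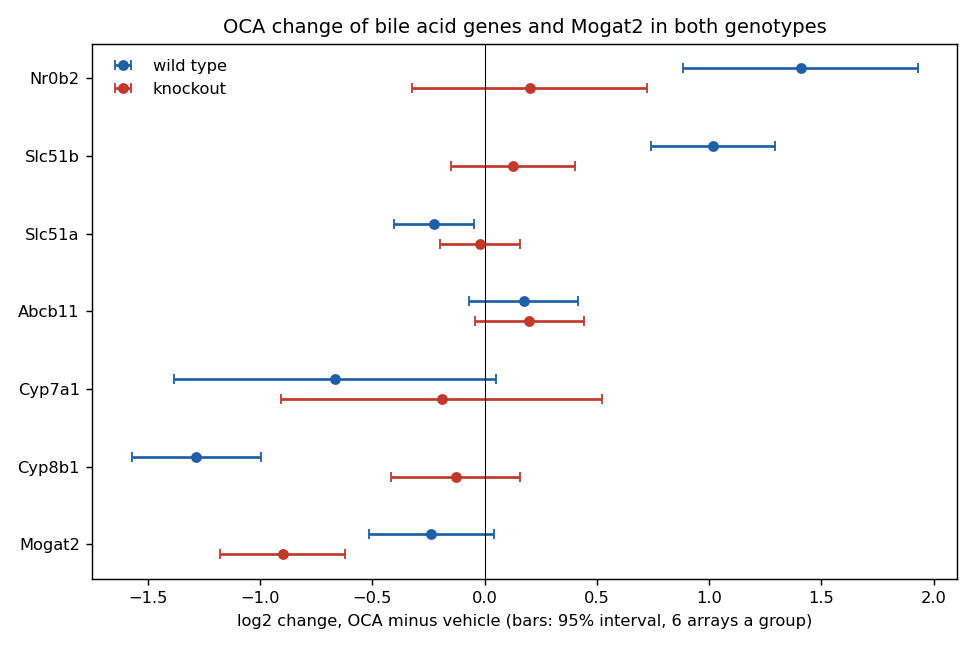
OCA minus vehicle on the log2 scale in wild-type (blue) and knockout (red) liver for 6 bile acid genes and Mogat2; points are the fitted changes and bars their 95% intervals, with 6 arrays in each group. The knockout interval of Nr0b2, Slc51b, Slc51a and Cyp8b1 includes 0 while the wild-type interval does not, and for Mogat2 the order is the other way round. The wild-type change of Slc51a is a fall, unlike that of Slc51b.

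Over all genes no difference between the genotypes' OCA effects was called (0% of 18820, limma with Benjamini-Hochberg adjustment), although 1140 genes had an unadjusted p under 0.05. In wild-type liver 13 genes were called, which is 0.0691%. For all 13 of them the knockout interval excluded the wild-type change, and the largest knockout change among them was 0.24 in size; these genes were chosen on the wild-type arrays, so the comparison is a description. By size, 26 genes moved more than 1.5-fold in knockout liver and 1 more than 2-fold, against 55 and 4 in wild-type liver. Of all genes tested in knockout liver, 97.0% had a 95% interval that lay within 1.5-fold in either direction and 99.6% within 2-fold. The median half-width of that interval was 0.19 on the log2 scale.

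FXR acts through a DNA element made of 2 copies of a nuclear receptor half-site in opposite orientation with 1 base between them. The promoter stretch of Abcb11 is shown because it holds the closest match to that element among the windows of Abcb11, Slc51b, Cyp8b1 and Nr0b2, and Abcb11 was lower in every knockout array than in every wild-type array. The motif searched was AGGTCANTGACCT, which is its own reverse complement and so covers both strands. It was sought in RefSeq promoter windows of build GRCm38.p6 that run from 250 bases before to 50 bases after the start of a transcript. The Abcb11 stretch is chr2:69342617-69342736 on the minus strand, read 5′ to 3′ from base −120 to base −1, and the capitals mark the match, which differs from the motif in 1 of 12 letters and lies at −63 to −51.
Abcb11: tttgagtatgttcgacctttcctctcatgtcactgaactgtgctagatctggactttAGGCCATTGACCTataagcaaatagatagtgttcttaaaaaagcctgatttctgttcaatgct
Of 18131 windows, 0.08% held a match with at most 1 differing letter. The best matches in the windows of those other bile acid genes and of the called genes Gngt1 and Far2 were weaker. Mogat2 and Cyp7a1 had no window in the table and Slc51a was not searched. The matches are shown with the agreeing letters in capitals to set them beside the Abcb11 element.
Slc51b: gGGTCAtTcACCc
Cyp8b1: AGGgCAggaACCT
Nr0b2: ActTCAtTGACta
Gngt1: AGtTCAaTcAtaT
Far2: AGcTaAcTttCCc
Slc51b and Cyp8b1 differed from the motif in 3 letters, as at most 10.39% of windows did, and Nr0b2 and Gngt1 in 4 letters, a match held by 53.79% of windows. Far2 differed in 5 letters, which 97.63% of windows reach. A match describes the letters only, and for a weak match these windows say nothing of sites elsewhere in the gene.

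The other receptors that bile acids reach were not called either. Gpbar1, which encodes the membrane bile acid receptor, stood at 4.83 ± 0.24 (SD, n = 6) under vehicle and 4.86 ± 0.18 (SD, n = 6) under OCA in knockout liver. Nr1i2, the PXR gene, was at −0.12 in knockout and 0.29 in wild-type liver, and the difference of −0.41 did not pass (limma, adjusted p = 0.419). None of the 8 receptor genes and none of the 16 genes that respond to cAMP, the messenger downstream of Gpbar1, reached an unadjusted p under 0.05 by limma. Of 24 genes induced through PXR and CAR 1 did: Cyp2b13, a female-biased cytochrome gene, at −0.55 (limma, adjusted p = 0.821), with a median of −0.03 over the list. Cyp2b13 was at 10.45 in knockout and 3.20 in wild-type vehicle liver, and close Cyp2b copies may share its probes.

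Beyond the called genes, the lowest changes in knockout liver were those of Osbpl3, a lipid-transfer protein gene of the oxysterol-binding family. Its lowest, median and highest values were 7.73, 8.03 and 8.41 under vehicle and 6.46, 7.18 and 7.57 under OCA. No OCA array reached the vehicle range, but the OCA arrays were spread over more than 1 log2 unit, and the change of −1.01 ± 0.23 (SE) was not called (limma, adjusted p = 0.259). Rragd, which encodes a Rag GTPase of the nutrient-sensing pathway, did not overlap either, with OCA arrays up to 6.56 and vehicle arrays from 6.57, and stood at −0.57 (limma, adjusted p = 0.259). Pak6, a p21-activated kinase gene named after its value was seen, stood at −0.46, with an adjusted p of 0.0639 by limma, the smallest among the genes that were not called.

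Several of these genes were far higher in knockout than in wild-type vehicle liver. Under vehicle, in wild-type and then knockout liver, Osbpl3 stood at 5.50 and 8.07, Rragd at 4.55 and 6.73, and Slc35f2, a solute carrier gene, at 4.36 and 6.38. Themis, known from T cell development, stood at 3.83 and 6.13 and Pak6 at 4.02 and 5.14. Under OCA the knockout means were 7.06 for Osbpl3, 6.17 for Rragd, 5.83 for Slc35f2, 5.31 for Themis and 4.69 for Pak6. All 5 lay between the knockout vehicle and the wild-type vehicle mean, but they are named here for being higher in knockout liver. Of the 12 lowest named changes, which include Mogat2, 6 lay between those means. The other 6, Cyp4a12a, Cyp4a12b, Ces3b, Inhbe, Usp2 and Gpcpd1, were lower in knockout than in wild-type vehicle liver by their means and lay further below under OCA. The knockout vehicle arrays enter both differences, so the genotype and the OCA values of these genes are not independent.

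The other large negative values were not called either. Cyp4a12a, a male-biased fatty acid hydroxylase gene of the PPARα pathway, stood at −0.85 and its near copy Cyp4a12b at −0.82. For Cyp4a12a, 4 of the OCA arrays lay between 10.09 and 10.26, within the vehicle range, and replicates 4 and 5 lay at 8.65 and 7.93. Usp2, a deubiquitinase gene under clock control, stood at −0.83, and Inhbe, an activin subunit gene made in hepatocytes, at −0.65. Ces3b, a carboxylesterase gene, stood at −0.61 and Lrtm2 at −0.55. Gpcpd1, a glycerophosphocholine phosphodiesterase gene, stood at −0.67 in knockout and −0.66 in wild-type liver. Adjusted p ran from 0.644 to 0.908 for these genes by limma.

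On the positive side, Npas2 and Arntl, which encode activators of the circadian clock, stood at 0.83 and 0.70. Npas2 ran from 4.08 to 4.54 under vehicle and from 4.38 to 5.52 under OCA, and only OCA replicate 4 lay inside the vehicle range. Dhrs9, a retinol dehydrogenase gene, stood at 0.81, Cyp26a1, which encodes the retinoic acid hydroxylase, at 0.64, and Slc22a26, an organic anion transporter family gene, at 0.68. The chaperone gene Hsph1 stood at 0.59, the mitochondrial protease gene Clpx at 0.57, the Notch target gene Hes1 at 0.55 and the vasopressin receptor gene Avpr1a at 0.46. Banp stood at 0.57 and Acnat2, an acyltransferase family gene, at 0.45. Acta2, the smooth muscle actin gene of activated stellate cells and vessel walls, stood at 0.72. None of these was called (limma, adjusted p from 0.763 to 0.968).

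Each array's description carries a code with a number that the sources used here do not explain. The number is 9 on all 6 knockout OCA arrays and on knockout vehicle replicates 1 and 2. It is 7 on the other 4 knockout vehicle arrays, so the drug and the number are partly confounded. In wild-type liver it is 5 on all 6 OCA arrays and on vehicle replicates 5 and 6, and 7 on the other 4 vehicle arrays. The wild-type OCA changes and the differences between genotypes are thus partly confounded with the number too. Vehicle arrays of number 9 or 7 are knockout arrays in what follows. Acta2 moved with the number: it read 8.67 and 8.51 in the vehicle arrays of number 9 and 6.80 to 7.68 in those of number 7, so that OCA stood 0.24 below the former and 1.20 above the latter. Dhrs9 stood 0.12 above the former and 1.15 above the latter, Ces3b at −0.07 and −0.88, and Themis at −0.27 and −1.09. For the 3 called genes the values were nearly equal: −0.89 and −0.91 for Mogat2, −0.50 and −0.45 for Far2, and 0.43 and 0.39 for Gngt1. With the number as a block in the fit none of them was called, at adjusted p of 0.223, 0.296 and 0.363 by limma. In that fit the knockout change rests on the 6 OCA and 2 vehicle arrays of number 9 alone. The changes were −0.89, −0.50 and 0.43, the same as against the number 9 vehicle arrays. Of the 12 lowest named changes 11 were smaller in size against the vehicle arrays of number 9, and of the 12 highest 9 were; the genes were picked on this contrast, so that the counts are descriptive. Among the 968 genes at unadjusted p under 0.05, the number 9 vehicle mean lay on the OCA side of the number 7 mean for 59.0%, against 53.0% of all genes. The next counts are from a limma fit that takes the spread from all 24 arrays. Between the 6 OCA arrays and the 2 vehicle arrays of number 9, 0 genes were called and 828 had an unadjusted p under 0.05. Between the vehicle arrays of number 9 and number 7 the counts were 0 and 923.

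**Figure D3:**
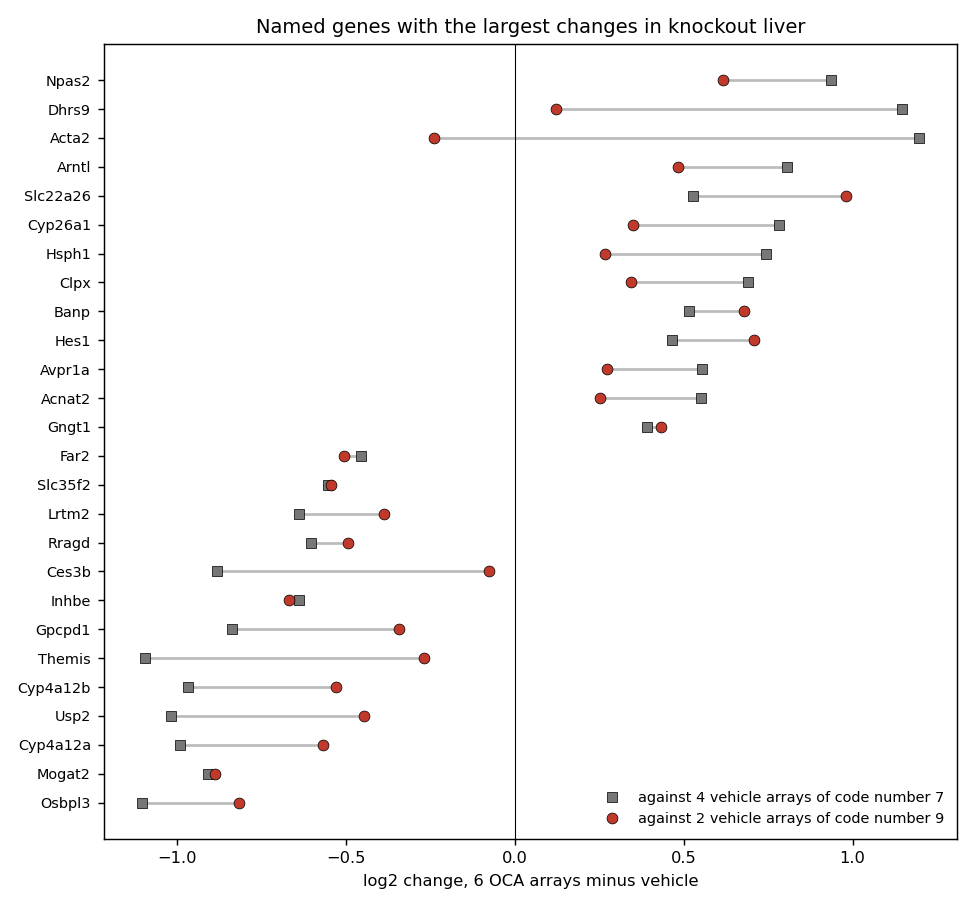
Log2 change of the 6 knockout OCA arrays against the 4 knockout vehicle arrays of code number 7 (grey squares) and against the 2 of code number 9 (red circles), for the named genes with the largest changes and the 3 called genes; a line joins the values of a gene. The pair lies close together for Mogat2, Far2, Gngt1, Slc35f2 and Inhbe and far apart for Acta2, Dhrs9, Themis and Ces3b, and for Acta2 it crosses 0.

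The knockout vehicle arrays divided by this number on the first principal component. Only 2 of them carry number 9, and drug and number are partly confounded, so their shares in this component were not tested. On the first principal component of the 12 knockout arrays, which held 13.5% of the variance, the vehicle arrays of number 7 lay between 6.5 and 13.1, the vehicle arrays of number 9 at −3.2 and −2.2, and the OCA arrays between −15.1 and 1.3. The vehicle arrays of number 9 thus lay inside the OCA range. On the second component, with 12.3%, OCA replicates 2 and 3 stood apart at 16.3 and 15.3 from the other arrays, which lay between −9.1 and 1.9.

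**Figure D4:**
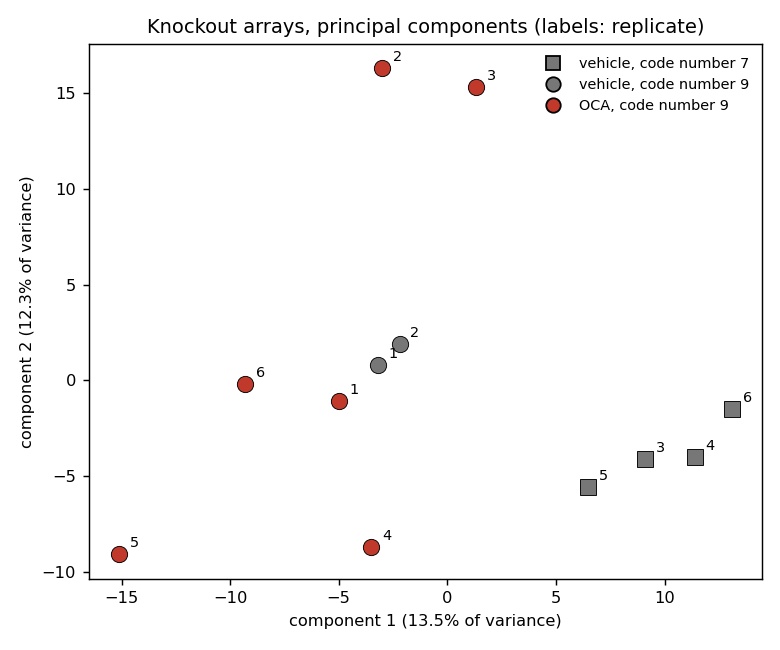
The 12 knockout arrays on their first and second principal components, with each array's score and its replicate number; squares are code number 7 and circles number 9, grey is vehicle and red OCA. The grey squares lie to the right, the grey circles lie among the red circles, and OCA replicates 2 and 3 lie at the top.

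Without a model, 57 genes were higher in every OCA array than in any vehicle array (0.303%) and 66 were lower (0.351%). After centring each array on its median these were 42 and 93. Likewise 505 genes were higher and 463 lower at unadjusted p under 0.05, and 380 and 581 after centring, where 941 in all would be passed if no gene differed. The direction of the smaller changes thus moved with the scaling, while the median of all genes stayed within 0.1 of 0. Leo1, which encodes a subunit of a transcription elongation complex and was named after its value was seen, is one of the genes without overlap, with vehicle arrays up to 5.92 and OCA arrays from 6.11 (log2 change 0.42, limma adjusted p = 0.224).

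Metabolic gene groups showed small shifts and no call apart from the 3 genes above. Of 25 genes of fatty acid oxidation and other PPARα targets 21 were lower under OCA, 4 of them at unadjusted p under 0.05, and the median was −0.08. Over all genes 48.4% were lower, and 2.46% were lower at that level. Cpt1a, which controls the entry of fatty acids into mitochondria, lay between 11.00 and 11.23 under vehicle and between 10.80 and 10.96 under OCA. The groups did not overlap, and the difference was −0.25 ± 0.08 (SE; limma, adjusted p = 0.797). The list median in wild-type liver was −0.14. In knockout liver it was 0.0 between the vehicle arrays of number 9 and number 7. For OCA it was −0.08 against the vehicle arrays of number 9 and −0.07 against those of number 7. Fatty acid synthesis (22 genes, median 0.05) and cholesterol synthesis and uptake (20 genes, median 0.07) had 0 genes at unadjusted p under 0.05 by limma, and their wild-type medians were 0.15 and 0.28. Among 18 lipid droplet genes and PPARγ targets 1, G0s2, an inhibitor gene of fat breakdown, passed that level at −0.54.

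Of 25 genes of the endoplasmic reticulum stress response 22 were higher under OCA, 4 at unadjusted p under 0.05, with a median of 0.12 and no call. Over all genes 51.6% were higher, and 2.68% were higher at that level. Hspa5, the main chaperone gene of that compartment, lay between 11.20 and 11.51 under vehicle and between 11.56 and 11.73 under OCA. The groups did not overlap, and the change was 0.26 ± 0.11 (SE; limma, adjusted p = 0.913). Hyou1, another chaperone gene, stood at 0.36 and Ero1b, an oxidase gene of protein folding, at 0.25. The list median was also 0.10 between the vehicle arrays of number 9 and those of number 7, without the drug, and 0.08 for OCA against the vehicle arrays of number 9.

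None of the 18 circadian genes was called. At unadjusted p under 0.05 by limma 2.68% of all genes were higher and 2.46% lower. Of the circadian genes 3 were higher and 3 lower at that level, and the other 12 did not reach it. The higher ones were Npas2, Arntl and Clock, which encode the activators, and the lower ones Cry2, Usp2 and Tef, of which Cry2 encodes a repressor of them; Clock and Tef were named after their values were seen. The list median was −0.18 for OCA, −0.17 between the vehicle arrays of the 2 numbers, and 0.04 for OCA against the number 9 vehicle arrays alone. A median of genes that move in opposite directions does not describe each gene. Against the number 9 vehicle arrays Npas2 stood at 0.62, Arntl at 0.48 and Usp2 at −0.44. Against those of number 7 they stood at 0.94, 0.81 and −1.02. The wild-type list median was 0.18. The sources used here do not give the hour at which each liver was taken.

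Of 22 male-biased liver genes 16 were lower, 5 of them at unadjusted p under 0.05, 1 was higher at that level, and the median was −0.15, beside the shares of all genes given above. The highest value was 0.76 for Bcl6, a repressor gene named after its value was seen (limma, adjusted p = 0.986). Cyp2d9, a male-specific steroid hydroxylase gene, ran from 7.77 to 8.54 under vehicle and from 7.24 to 8.15 under OCA, and stood at −0.48 (limma, adjusted p = 0.763). Slco1a1, also male-biased, was the one higher at unadjusted p under 0.05. Its change was 0.23 against the number 9 vehicle arrays and 0.74 against those of number 7. The list stood at −0.08 between the vehicle arrays of the 2 numbers and at −0.10 for OCA against number 9 alone. The 21 female-biased genes had a median of −0.01, with only Cyp2b13 at unadjusted p under 0.05.

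Of the remaining groups, glucose metabolism and the NRF2 antioxidant response had 1 gene each at unadjusted p under 0.05, the interferon-stimulated genes 1 and the cell cycle genes 2. The 26 acute phase genes had 0, with a median of 0.04. Among 20 genes of collagen and fibrosis 4 were higher at unadjusted p under 0.05, among them Acta2 and Tgfb1, a fibrosis growth factor gene at 0.25. At that level 2.68% of all genes were higher and 2.46% lower. The median of the collagen and fibrosis list was 0.02. It was −0.03 for OCA against the number 9 vehicle arrays and 0.03 against those of number 7.

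**Figure D5:**
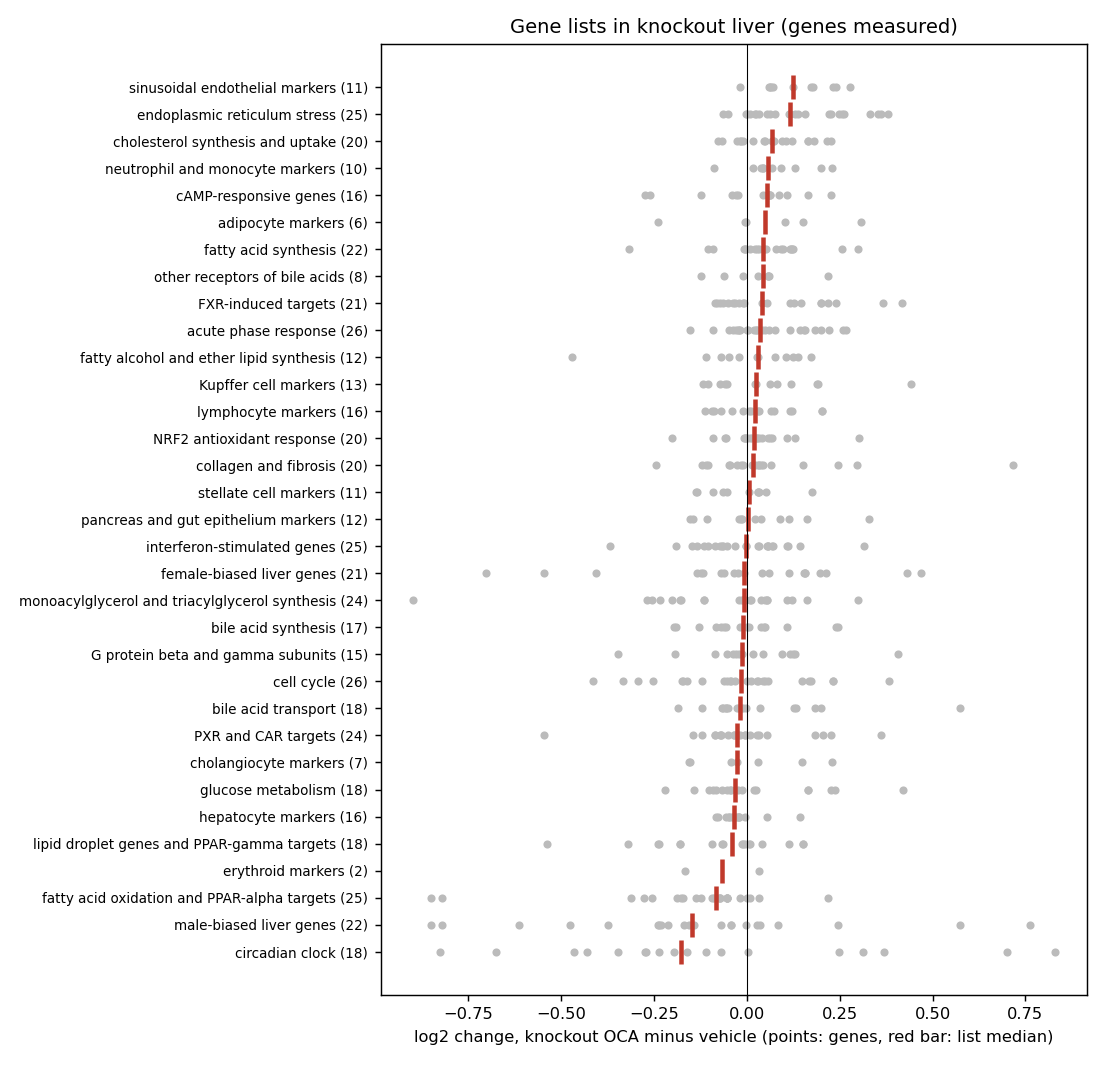
Log2 change of each gene under OCA in knockout liver (grey points) for the 33 gene lists, with the list median as a red bar and the number of genes measured in parentheses. Medians run from −0.18 for the circadian clock to 0.12 for the sinusoidal endothelial markers, against 0.00 for all genes.

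The tissue was liver by its markers: all 16 hepatocyte marker genes measured stood at a level of at least 5, and their summed level ran from 16.61 to 16.67 in the vehicle and from 16.55 to 16.66 in the OCA arrays. Of these 16 genes 14 were lower under OCA, 0 at unadjusted p under 0.05 by limma, with a median of −0.03. Of all genes tested 51.6% were higher and 48.4% lower, and 2.68% were higher at that level. Of 11 sinusoidal endothelial markers 10 were higher under OCA, 3 at unadjusted p under 0.05, with summed levels of 11.70 to 12.13 and 11.87 to 12.20. Their median was 0.12 for OCA and 0.13 between the vehicle arrays of number 9 and number 7. The summed Kupffer cell markers ran from 12.72 to 12.92 and from 12.66 to 13.36, and the stellate cell markers from 12.16 to 12.40 and from 12.24 to 12.40. Cholangiocyte, lymphocyte, neutrophil and monocyte, erythroid, adipocyte, and pancreas and gut markers had 0 genes at unadjusted p under 0.05 by limma. Of 10 neutrophil and monocyte markers 9 were higher, with summed levels of 6.92 to 7.23 and 7.02 to 7.46. No lymphocyte marker reached a level of 5. In whole liver, fewer cells of a type and less RNA per cell cannot be told apart, and the part of these markers in the gene changes was not tested.

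One wild-type vehicle array, replicate 6, stood apart from its group, with an array weight of 0.22 against 0.67 or more for the other 23. It enters the knockout comparison only through the shared estimate of spread, and the same 3 genes were called without it.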

How the data were processed

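Total liver RNA of 24 mice was measured on whole-transcript arrays, 1 mouse per array, at 6 arrays a group; the number of arrays limits the precision. The authors deposited normalized log2 expression values, made with RMA per the submitters' processing notes; the RMA version was not given in the sources used here, nor was the base of the logarithm, and values of 0.87 to 13.6 fit base 2. Medians per array were 4.57 to 4.65. Of 35556 probe sets 21218 had 1 symbol, and the highest-mean probe set was kept for each of 18820 genes. A means model of the 4 groups was fitted with limma 3.58.1 in R 4.3.3 (20 residual and 4.46 prior degrees of freedom), was tested on simulated data, and p-values were adjusted by Benjamini-Hochberg. Per gene list, counts and medians were given and no set test was run. The genes and lists were chosen with earlier results of these data known. Named genes were a set of FXR, bile acid and lipid genes, every called gene, the 12 lowest and 12 highest changes at unadjusted p under 0.05 with a group mean of at least 5 and no predicted gene, and 3 genes per list by p. Gene symbols and promoter windows came from RefSeq (GRCm38.p6). Alternatives covered scaling, filters, probe sets, weights, blocks and single arrays left out. Same-numbered knockout arrays did not deviate together (r from −0.04 to 0.03), so the replicate number was not a block.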

Additional observations from a re-analysis of the deposited data

Results flagged for a closer look

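Within the knockout groups of 6 arrays, 5 values lay far from the rest of their group by Dixon's criterion, among 134 pairs of a named gene and a group; about 1 in 20 pairs passes it by chance. Mogat1 read 5.31 on OCA replicate 2, while the other 5 OCA arrays lay between 6.60 and 6.92. The same array was also the lowest of the OCA group for Mogat2, at 5.14, and Osbpl3, at 6.46. Mmrn1, which encodes multimerin, read 2.64 on OCA replicate 4, below 3.58 to 3.96 on the others. Ero1b read 6.77 on vehicle replicate 5, below 7.00 to 7.14 on the others, and 7.17 on OCA replicate 1, below 7.30 to 7.35. Lipe read 6.59 on OCA replicate 5, below 6.77 to 6.87 on the other OCA arrays.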

How the results depend on the processing

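Against 3 calls for OCA in knockout liver, 1 gene was called among genes with a mean of at least 5 and 0 among genes above the median gene, where Mogat2, Far2 and Gngt1 were not tested. The count was 11 with array weights, 5 over all probe sets, and 0 with only the knockout groups, when the array code's number or letter was a block, with number 9 alone, or without arrays whose names end in _2. The 11 were the same 3 genes with Pak6, Osbpl3, Rragd, Nebl and Polr2f lower and Leo1, Sap18 and Cbfa2t3 higher; genes named only in these paragraphs were picked after their values were seen. Leaving out 1 knockout array gave 0 to 4 calls, 0 without vehicle replicate 2 or OCA replicate 6 and 4, with Pak6, without vehicle replicate 4. Centring, quantile normalization and trend with robust fitting called 2 genes each, Mogat2 and Far2. The replicate block called 3, the same genes, and changed no call. No setting changed the sign of the 3 genes. Their groups did not overlap, so leaving out arrays could not have changed it. Over all settings that tested them Mogat2 ran from −1.01 to −0.80, Far2 from −0.51 to −0.42 and Gngt1 from 0.33 to 0.45. The calls were lost in 7 of 26, 7 of 25 and 15 of 25.

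Against 0 calls for the difference between the genotypes' OCA effects, the count was 2 with array weights (Cyp8b1 and Slc13a2), 3 without wild-type vehicle replicate 6 (with Cbfa2t3) and 34 when the array code number was a block. With that block each genotype's OCA change rests on only 2 vehicle arrays, those that share the OCA arrays' number. Without 1 knockout array the count was 0 to 3, and 3 without OCA replicate 4 (Cyp8b1, Enpp6 and Mmrn1). Genes without overlap between the groups numbered 123, and 167 to 249 when 1 knockout array was left out, where fewer arrays make overlap rarer. Far2 and Gngt1 lay far below the median gene, and signal near the lower end limits what can be read from them. The cause of the other shifts was not tested.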
